A study of Homo sapiens with 4 samples.

Results

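The poly(A) clusters (PACs) described here lie 1 to 5000 nt past the annotated end of a protein-coding gene, on the same strand and outside every same-strand gene of GENCODE v44. Each PAC with a TPM above 1 in at least 1 library was placed by its dominant cleavage site in the library where its TPM was highest. Of 17627 PACs in all, 820 (4.65%) met this rule, in 798 genes, against 15090 PACs in annotated exons and 3′ UTRs and 601 intergenic PACs that lay farther out or elsewhere. TPM is the number of tags of a PAC scaled to the total tags of its library, with no correction for length.

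Ends of polyadenylated RNA were sequenced by PAS-seq in the human esophageal squamous cell carcinoma (ESCC) lines KYSE30 and TE-1, both grown in RPMI 1640 with fetal bovine serum. For each line, 1 culture received l-lactate (20 mM, 24 h) and 1 control culture received PBS, to ask whether lactate alters alternative polyadenylation. The cell line labels of the control samples name KYSE32 and TE-3, but their titles and the methods of the study name KYSE30 and TE-1. The titles were followed. There were no replicates within a line, so the l-lactate effect was tested with the lines as its only repeats, and the line difference with the l-lactate and control libraries as its only repeats.

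The libraries held 7174991 to 10393799 tags, and the lowest listed TPM was 1.06 to 1.12, or 8 to 11 tags. A PAC absent from a table was taken as 0, which means a level under this floor and not the absence of RNA. Of 10 epithelial and squamous marker genes, 7 were listed in both KYSE30 libraries and 5 to 6 in those of TE-1, with KRT8 and KRT18 listed in every library but KRT5 and KRT14 in none. TP63 and KRT6A were listed in KYSE30 only, and KRT17 in TE-1 only, at 187 and 245 TPM. CDH1 had 235 and 210 TPM in KYSE30 and 1.30 and 0 TPM in TE-1, l-lactate first. EPCAM had 635 and 563 TPM in KYSE30 and 36.4 and 30.7 TPM in TE-1. SFN was listed in every library, at 205 to 313 TPM. Of the immune and fibroblast or vessel markers, CD68 was listed at 3.48 to 15.2 TPM, COL1A1 and PDGFRB at up to 6.85 TPM in TE-1 only, and PTPRC, CD3E, COL1A2, PECAM1 and VWF in no library.

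Cleavage of a messenger RNA is set by short elements around the site. The hexamer AAUAAA or its main variant AUUAAA, bound by CPSF, lies upstream of the site, a U- or GU-rich stretch bound by CstF lies downstream, and UGUA, bound by NUDT21 in the CFIm complex, favours particular sites. RNA polymerase II keeps transcribing past the site until PCF11, XRN2 and other factors release it, so sequence past an annotated end is transcribed and a functional signal there can give a longer 3′ end that the annotation lacks.

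The RNA sequence before the site shows what the PACs past gene ends share with ordinary 3′ ends. The windows below hold the 30 nt that end at the dominant site, read from hg38 on the strand of the gene, 5′ to 3′, with the poly(A) signal in capitals. The first set holds the PACs of highest usage more than 24 nt past the end, all of which had 1 of the main signals.
PLAC8, 3928 nt past the end, chr4:83086120-83086149, minus strand: tcAATAAAatatcttctttttgtacatcca
PLAC8, 2777 nt, chr4:83087271-83087300, minus strand: tgcatacctggAATAAAtcccacttggtca
USP32, 96 nt, chr17:60177231-60177260, minus strand: caaacaaATTAAAtactgtggatgcctcca
ZNF714, 1470 nt, chr19:21126711-21126740, plus strand: tttgaaagtttAATAAAttttgtttgttta
SLC16A3, 30 nt, chr17:82261130-82261159, plus strand: ttagagaatgAATAAAatacagtaaaagca
PCDH1, 2697 nt, chr5:141850393-141850422, minus strand: gagctttacAATAAAagtgtgaaaaccgga
NOC3L, 4864 nt, chr10:94328362-94328391, minus strand: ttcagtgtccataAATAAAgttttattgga
SCRN3, 496 nt, chr2:174430042-174430071, plus strand: aattatgAATAAAcctgccgtagacatcca
The second set holds the site with the largest increase in usage with l-lactate in both lines among PACs with a mean above 5 TPM, in which none of the signals searched was found, and a pair of histone genes with AATAAA.
GALK1, 125 nt, chr17:75751469-75751498, minus strand: ataatcttttaaagtgctatctgaaattca
H1-2, 34 nt, chr6:26055706-26055735, minus strand: tctcAATAAAagagctggataatttcttta
H2AC11, 1757 nt, chr6:27135263-27135292, plus strand: attcatAATAAAgtgaaatgttcaagttca
The third set holds a pair of abundant PACs that lie 1 nt past the end and end on a base other than A.
RPLP0, 1 nt, chr12:120196698-120196727, minus strand: gaAATAAAggcttacttctttaaaaagtct
VIM, 1 nt, chr10:17237565-17237594, plus strand: tctgcttcAATAAAtctttggaaaaactct

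Most of the PACs lay at the gene end itself. Of the 820, 497 (60.6%) were within 24 nt, the distance within which the study joined sites, and 394 were exactly 1 nt past the end. The other 323, in 306 genes, had a median distance of 1661 nt (quartiles 709 and 3052.5 nt). There were 55 up to 500 nt out, 48 more up to 1000 nt and 85 more up to 2000 nt. The next intervals of 1000 nt held 52, 51 and 32. The PACs near the end were the more abundant, with a median of 13.1 TPM (mean over the libraries) against 2.71 TPM farther out.

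**Figure D1:**
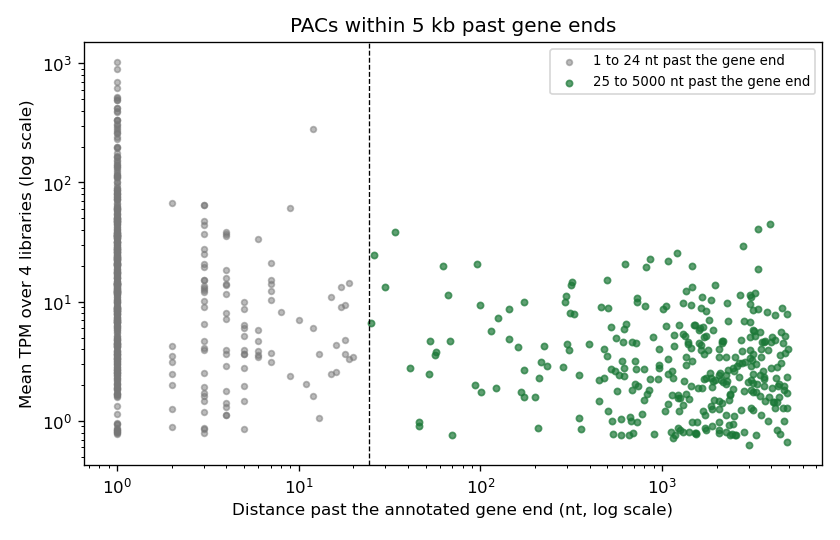
Each point is 1 of the 820 PACs, by its distance past the annotated gene end (nt, log scale) and its mean TPM over the 4 libraries (log scale). The column at 1 nt holds 394 PACs and reaches 1032 TPM, while the 323 PACs past the dashed line at 24 nt reach at most 45.1 TPM.

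The base at the site differed between the PACs 1 nt past the end and other PACs. Among the 394 PACs at 1 nt, the site was A in 17 and another base in 377, whereas among 1651 annotated PACs whose site was the last base of the gene it was A in 1579. Over all 17621 PACs with sequence, the site was A in 88.6% and the base before it in 0.369%. For the PACs past 24 nt the values were 91.0% and 0.619%, and for the 103 PACs at 2 to 24 nt they were 79.6% and 0%. Counting sites 1 nt nearer the gene would take the 394 PACs out of this set. The values below are therefore given separately for the PACs within 24 nt and past it. The part that trimming of the A tail plays in this pattern was not tested.

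Beyond 24 nt the PACs were less often listed in every library. All 4 libraries listed 381 of those within 24 nt (76.7%) but 141 of the 323 farther out (43.7%), where the share over all PACs was 70.0%. Of the 323, 51 were listed in 1 library only. RefSeq (GRCh38.p14), matched by gene for 317 of them, had a gene span that held 28 (8.83%). A protein-coding gene on the opposite strand covered 84 (26.0%). The next same-strand gene began within 1000 nt of 11 and within 5000 nt of 56.

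The clusters past gene ends took 2.37% of listed tags in the KYSE30 l-lactate library (95% Wilson interval 2.36 to 2.39) and 2.43% in the KYSE30 control (2.42 to 2.44). In TE-1 they took 2.80% with l-lactate (2.78 to 2.81) and 2.74% in the control (2.73 to 2.75). The share was higher in both TE-1 libraries than in both KYSE30 libraries. It counts all tags of a PAC whose dominant site lies past the end, including any tags inside the gene. The PAC of VIM, for example, spanned chr10:17237306-17237597 with its dominant site at 17237594. The summed TPM was 22031.5 and 22447.9 in KYSE30 and 25936.5 and 25486.5 in TE-1, l-lactate first. Single abundant genes weigh on it: VIM had 6.69 and 5.66 TPM in KYSE30 and 982 and 991 TPM in TE-1. Others, such as RPLP0, were higher in KYSE30, and the part of single genes was not tested. Intervals here and below cover counting error only, since there was 1 library per condition and line. Amplified reads are not independent molecules, so the intervals can be too narrow even for counting error. The 323 PACs past 24 nt accounted for only 0.164% and 0.171% in KYSE30 and 0.166% and 0.149% in TE-1, l-lactate first.

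Signals upstream of the sites were found past gene ends in shares that overlapped, within counting error, those of the annotated PACs of the same genes. Within the 50 nt upstream of the site, on the strand of the gene, AAUAAA was found at 201 of the 323 PACs past 24 nt (62.2%, Wilson interval 56.8 to 67.3), against 232 of 380 annotated PACs of these genes (61.1%, 56.1 to 65.8) and 9123 of 13692 PACs in all 3′ UTRs (66.6%, 65.8 to 67.4). With AUUAAA added, the shares were 79.9% (75.2 to 83.9), 77.9% (73.5 to 81.8) and 83.4% (82.8 to 84.0). The hexamer ended a median of 17 nt before the site past gene ends and 16.5 nt in the annotated PACs of the same genes.

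A further 12.7% of the PACs past 24 nt had only a variant, and 7.43% had none of the hexamers. The variants searched were AGUAAA and, with another second base, ACUAAA, then UAUAAA and likewise CAUAAA and also GAUAAA, then, with a change nearer the end, AAUAUA and also AAUACA and further AAUAGA, and lastly AAUGAA. Some of these can overlap each other or the main signals. In all 3′ UTRs these were 11.7% and 4.87%. UGUA, within 100 nt upstream, was found at 54.5% (49.0 to 59.8), against 47.6% (42.7 to 52.7) in annotated PACs of the same genes and 58.0% (57.2 to 58.8) in all 3′ UTRs. A match to these letters is a description of the window and not evidence of binding. Genomic A-rich sequence after the site, on which an oligo(dT) primer can start within a transcript, was counted where the next 10 nt held 6 A in a row or 7 A in all. It followed 4 of 323 sites (1.24%, 0.483 to 3.14), against 1.84% (0.895 to 3.75) of annotated PACs of the same genes and 3.87% (2.59 to 5.73) of intergenic PACs farther than 5000 nt.

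The PACs within 24 nt of the end had AAUAAA at 72.4% (68.3 to 76.2) and AAUAAA or AUUAAA at 88.3% (85.2 to 90.9) of 497 sites, above the 3′ UTR shares with intervals that did not overlap. Among them, 1 site was followed by A-rich sequence. More than 500 nt past the end, AAUAAA was found at 61.2% of 268 sites (55.2 to 66.8).

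**Figure D2:**
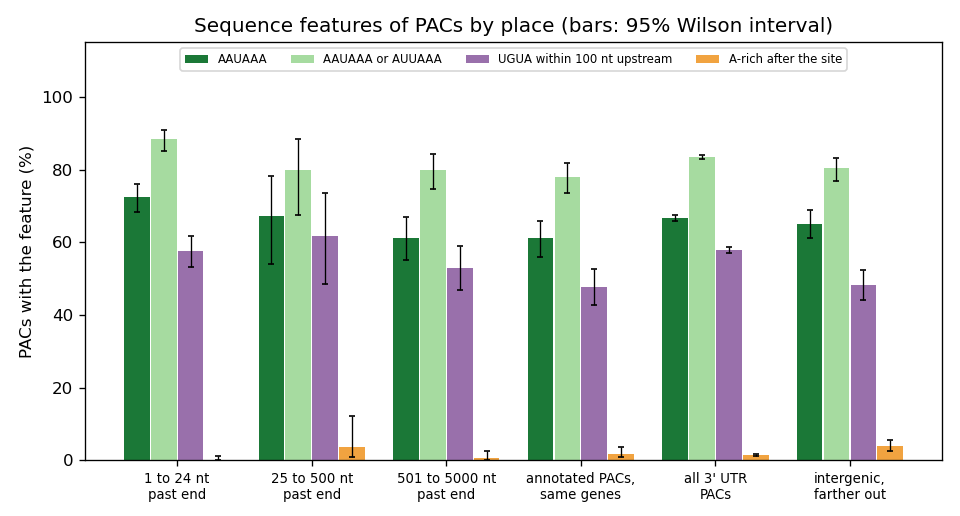
Bars give the percentage of PACs with each sequence feature and whiskers the 95% Wilson interval, for PACs past gene ends in 3 ranges of distance (497, 55 and 268 PACs), annotated PACs of the same genes, all 3′ UTR PACs and intergenic PACs farther out. AAUAAA lies between 61.1% and 72.4% in every group, and A-rich sequence stays under 4%.

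The most abundant PACs all lay 1 nt past the end, and for 7 of the 8 no annotated PAC of the gene was listed at all. Counting only dominant sites within annotated gene spans would leave these genes without a listed PAC. Counting by overlap can differ, since a PAC can begin inside the gene, as that of VIM did. RPLP0, a protein of the large ribosomal subunit, had 1116 TPM with l-lactate and 1214 TPM in the control of KYSE30, and 845 and 953 TPM in TE-1. TUBB4B, a beta-tubulin, had 754 and 773 TPM in KYSE30 and 1047 and 1004 TPM in TE-1. FBL, the methyltransferase fibrillarin of the nucleolus, had 680 and 651 TPM in KYSE30 and 701 and 741 TPM in TE-1. RPLP0 was higher in KYSE30 and TUBB4B in TE-1, with no overlap between lines, while FBL differed by 0.12 on the log2(TPM + 1) scale (SE 0.06, limma adjusted p = 0.171).

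DYNLL1, a dynein light chain, had 492.5 and 438.5 TPM in KYSE30 and 810 and 744 TPM in TE-1. C19orf33 had 211 and 279 TPM in KYSE30 and 773 and 834 TPM in TE-1. The last pair of single-PAC genes separated the lines most. CKB, the brain-type creatine kinase, had 51.7 and 46.6 TPM in KYSE30 and 958 and 996 TPM in TE-1, a log2 difference of 4.29 (SE 0.08, adjusted p = 0.000519). VIM, the intermediate filament protein of mesenchymal cells, had 6.69 and 5.66 TPM in KYSE30 and 981.6 and 991.5 TPM in TE-1, a log2 difference of 7.11 (SE 0.09, adjusted p = 0.000459). In bulk samples, fewer cells that express a gene and less RNA per cell cannot be told apart.

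TMBIM6, an inhibitor of cell death in the endoplasmic reticulum, was the only gene of these 8 with an annotated PAC. Its PAC 1 nt past the end had 619 and 601 TPM in KYSE30 and 387 and 366 TPM in TE-1, and its annotated PAC 64.4 and 71.8 TPM in KYSE30 and 94.7 and 112 TPM in TE-1. The usage of the PAC past the end, its share of the tags of itself and the annotated PACs of the gene, was 90.6% and 89.3% in KYSE30 and 80.3% and 76.5% in TE-1. The log2 ratio of the PAC to the annotated PACs was 1.29 lower in TE-1 (SE 0.16, adjusted p = 0.0212), a call lost with no filter on TPM (adjusted p = 0.0637).

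Levels of the PACs were tested between lines with limma on log2(TPM + 1), for the 758 of the 820 with a mean TPM above 1. In TE-1, 223 were higher (29.4%) and 225 lower (29.7%), against 31.8% and 33.0% of all 16709 PACs tested, so these shares were near the background. With l-lactate, none of the 758 passed, nor did any of the 16709 (background 0%). At an unadjusted p under 0.05 there were 44 of 758, against 7.25% of all PACs, and 487 of 758 between lines, against 68.8%.

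Usage could be followed for the genes that had annotated PACs as well. No annotated PAC was listed for 341 of the 497 PACs within 24 nt (68.6%) and for 48 of the 323 farther out (14.9%). With a mean TPM above 1 for the PAC and above 5 for the annotated PACs, 326 of the 820 remained, 217 of them past 24 nt. Those 217 past 24 nt were mostly minor ends, with a median usage of 7.23% (quartiles 2.22% and 15.6%), 92 of 217 under 5% and 11 above 50%. The filter leaves out genes whose annotated PACs were low or not listed, where the PAC past the end can be the main one. These values do not describe such genes. The median was 13.2% up to 500 nt out, 7.42% from there to 2000 nt and 5.44% beyond 2000 nt. Summed over these genes, the PACs past the end held 3.34% of tags in both KYSE30 libraries, and 3.05% and 2.71% in TE-1.

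In a few genes the PAC past the end was the main one. PLAC8, a small cysteine-rich protein, had the PAC of highest usage, 3928 nt past the end, at 56.9 TPM with l-lactate and 70.6 TPM in the control of KYSE30 and 29.6 and 23.4 TPM in TE-1. A second PAC of the gene, 2777 nt past the end, had 40.6 and 38.9 TPM in KYSE30 and 20.7 and 18.2 TPM in TE-1. The annotated PAC had 14.05 to 16.31 TPM in every library. Each PAC past the end of PLAC8 thus exceeded the annotated one in every library, by most in KYSE30. Set against the annotated PAC alone, usage was 77.7%, 83.04%, 67.3% and 62.5% for the farther site and 71.3%, 73.0%, 58.9% and 56.4% for the nearer one, in the order KYSE30 l-lactate and control and TE-1 l-lactate and control. The nearer site passed the test between lines (log2 usage ratio 0.90 higher in KYSE30, that is -0.90 for TE-1, SE 0.17, adjusted p = 0.0397) and the farther did not (-1.13, SE 0.26, adjusted p = 0.0544); the difference between the sites was not tested. The calls depended on the settings: that of the nearer site was lost with a pseudocount of 0.5 and with no filter on TPM, and the farther site passed under 5 alternatives, among them a pseudocount of 5 and only PACs listed in all libraries. PLAC8 was the only gene with 3 PACs past 24 nt, the third being listed in the KYSE30 control only, at 3.37 TPM.

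SLC16A3, the proton-linked exporter of lactate MCT4, had a PAC 30 nt past the end at 26.6 TPM with l-lactate and 17.2 TPM in the control of KYSE30, and at 5.43 and 3.66 TPM in TE-1. Its annotated PAC had 6.27 and 5.79 TPM in KYSE30 and 4.49 and 3.66 TPM in TE-1. Usage was therefore 80.9% and 74.9% in KYSE30 and 54.8% and 50% in TE-1, lower in TE-1 by 1.56 on the log2 ratio scale (SE 0.17, adjusted p = 0.0191). The difference with l-lactate was 6.08 percentage points in KYSE30 (interval -1.99 to 14.4) and 4.76 in TE-1 (-10.5 to 19.7), and both intervals include 0.

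USP32, a ubiquitin-specific protease, had a PAC 96 nt past the end at 25.2 and 23.4 TPM in KYSE30 and 17.8 and 16.5 TPM in TE-1. Its usage of 78.0% and 79.8% in KYSE30 exceeded the 67.4% and 64.8% in TE-1 (log2 ratio -0.87 for TE-1, SE 0.17, adjusted p = 0.0435), a call lost with a pseudocount of 0.5 and with no filter on TPM. ZNF714, a zinc finger protein of chromosome 19, had a PAC 1470 nt past the end at 10.9 and 10.8 TPM in KYSE30 and 15.1 and 16.9 TPM in TE-1. Usage there was 86.7% and 81.6% in KYSE30 and 56.9% and 62.0% in TE-1 (log2 ratio -1.45, SE 0.23, adjusted p = 0.0303). In ZNF714 the PAC past the end was higher in TE-1 while its usage was lower, as the annotated PACs had 1.67 and 2.42 TPM in KYSE30 and 11.5 and 10.4 TPM in TE-1.

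PCDH1, a protocadherin of epithelial cell contacts, was listed in KYSE30 only, both in its PAC 2697 nt past the end (19.9 and 25.6 TPM) and in its annotated PAC (13.4 and 16.8 TPM), at a usage of 59.8% and 60.3%. SCRN3, a secernin, went the other way from the rest. Its PAC 496 nt past the end had 13.7 and 13.9 TPM in KYSE30 and 16.5 and 16.4 TPM in TE-1, at a usage of 51.6% and 47.9% in KYSE30 and 62.8% and 66.1% in TE-1, with a line difference that missed the threshold (log2 ratio 0.81, SE 0.19, adjusted p = 0.0582). NOC3L, a nucleolar protein of ribosome assembly, had a PAC 4864 nt past the end at similar levels in both lines (10.04 and 7.003 TPM in KYSE30, 8.15 and 6.35 TPM in TE-1). Its annotated PAC was listed at 0 in both KYSE30 libraries and at 38.0 and 35.9 TPM in TE-1, so usage was 100% in KYSE30 and 17.6% and 15.0% in TE-1. This PAC lies within PLCE1 on the opposite strand and within the RefSeq span of NOC3L, and the annotated PAC rather than the PAC past the end carried the difference.

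Other abundant PACs past 24 nt were looked up after their values were seen: 12 had a mean above 20 TPM. CDCA2, a regulator of mitotic chromosomes, had 40.1 and 45.5 TPM in KYSE30 and 35.2 and 43.0 TPM in TE-1 at 3397 nt, with a usage of 45.1% to 52.7% in the 4 libraries. HASPIN, the kinase of histone H3 in mitosis, had 28.9 and 31.0 TPM in KYSE30 and 19.8 and 23.2 TPM in TE-1 at 1214 nt, with no annotated PAC listed. ASS1, the urea cycle enzyme argininosuccinate synthase, had no listed PAC in KYSE30 and 49.8 and 37.6 TPM in TE-1 at 1073 nt, at a usage of 24.3% and 16.8%.

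Between the lines, the usage test across all PACs called 35 of the 326 PACs past gene ends higher in TE-1 (10.7%) and 54 higher in KYSE30 (16.6%), against 12.7% in each direction over all 5731 PACs tested. The median log2 difference of the 326 was -0.16 for TE-1 against KYSE30, and 0.00037 over all PACs tested. Annotated PACs were set against the other annotated PACs of their gene, so within a gene higher and lower values largely offset each other. The usage backgrounds here and below are therefore near balance between directions by design. They cannot show whether an uneven split among PACs past gene ends is unusual. The share called was close to the background higher in TE-1 and above it higher in KYSE30, and whether the PACs past gene ends differ from the rest in this was not tested. Many of the 89 calls rest on PACs that a line did not list at all: 31 were not listed in TE-1, 21 were not listed in KYSE30 and 33 were listed in all libraries. For 13 of the 89, 1 line listed no PAC of the gene used in the fit, so there the difference rests on the pseudocount and is not a difference in usage. BCAT1, looked up after its values were seen, is an example, called higher in TE-1 with its PAC and its annotated PACs listed at 0 there. Of the 304 PACs with a usage in every library, 26 were called higher in TE-1 (8.55%) and 46 higher in KYSE30 (15.1%), against 11.8% and 11.7% of all such PACs. When only PACs listed in all 4 libraries entered the fit, 34 of 184 were called higher in TE-1 and 53 higher in KYSE30, against backgrounds of 23.8% and 24.6%.

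Past 24 nt, the PAC followed the level of its own gene more than that of the next gene. Over the 217 PACs tested, the log2 ratio of TE-1 to KYSE30 of the PAC had a Spearman's rho of 0.68 with that of the annotated PACs of its gene. For the 30 of them that also had a same-strand neighbour within 20 kb at a mean above 5 TPM, rho was 0.87 with the own gene and 0.14 with the neighbour. These values are across PACs, which share the same 4 libraries and their depth and are not independent replicates.

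Line-specific PACs were often found in genes that both lines expressed. Past 24 nt, 40 PACs (12.4%) were listed in both KYSE30 libraries and neither TE-1 library, against 9.27% of all PACs, and for 30 of the 38 with annotated PACs the gene was also listed in both TE-1 libraries. The reverse held for 45 PACs (13.9%), against 8.32%, and for 24 of 38 the gene was also listed in both KYSE30 libraries. The part of the listing floor of 1.06 to 1.12 TPM in these counts was not tested.

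Among PACs past the test with a mean above 5 TPM, the 4 with the widest difference in usage in each direction lay within 24 nt of the gene end, apart from NOC3L. DNAJA2, a co-chaperone of HSP70, had a usage of 47.5% and 56.8% in KYSE30 and 23.1% and 22.6% in TE-1 (log2 ratio -1.78, SE 0.22, adjusted p = 0.0211). LNPK, which shapes junctions of the endoplasmic reticulum, had 70.4% and 69.1% in KYSE30 and 34.9% and 48.6% in TE-1 (adjusted p = 0.0324). PIGL, an enzyme of GPI anchor synthesis, had 26.6% and 28.6% in KYSE30, and in TE-1 the PAC was not listed while the annotated PACs had 11.6 and 10.9 TPM (adjusted p = 0.0160). In each of these, the KYSE30 libraries did not overlap those of TE-1. This follows from choosing PACs that passed the test and differed most, and is no added support.

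Higher in TE-1 were SUMO3, a ubiquitin-like modifier, with 69.5% and 66.2% in KYSE30 and 86.7% and 85.2% in TE-1 (adjusted p = 0.0183), NDC1, a membrane nucleoporin, with 28.3% and 26.9% against 46.2% and 49.5% (adjusted p = 0.0269), and DHX40, an RNA helicase, with 40.7% and 45.1% against 54.9% and 62.5% (adjusted p = 0.0429). The calls of DHX40 and LNPK were lost with a pseudocount of 0.5, and with no filter on TPM those of SLC16A3, ZNF714, DNAJA2, LNPK, PIGL, SUMO3, NDC1, DHX40 and LIPH were lost. LIPH, a phospholipase, was called higher as well, yet its PAC past the end had 72.5 and 83.2 TPM in KYSE30 and 3.90 and 3.94 TPM in TE-1, where its annotated PACs were not listed, and the sign of its difference turned with a pseudocount of 5.

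With l-lactate, none of the 326 PACs past gene ends passed the usage test, as none of the 5731 did (background 0%). Data were simulated with a preset spread of tags and the same change in both lines. There this test called 26 of 97 PACs raised 2-fold and 82 of 100 raised 4-fold, and its rates in these data may differ. Changes of this size can therefore go uncalled. The lowest adjusted p among the 326 was 0.34, and 22 had an unadjusted p under 0.05, against 8.69% of all PACs tested. The median log2 difference was 0.03, or 0.06 past 24 nt, and 120 of those 217 were higher and 97 lower. A change of at least 10 percentage points in the same direction in both lines was seen for 8 of 326 (2.45%), against 2.04% of all PACs, 5 of them higher (background 0.995%) and 3 lower (1.05%) with l-lactate. In KYSE30 alone 21 and in TE-1 alone 30 moved by that much in either direction, against 9.61% and 10.8% of all PACs.

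GALK1, galactokinase, was the only one of the 8 listed in every library. Its PAC 125 nt past the end had 5.296 TPM with l-lactate and 2.56 TPM in the control of KYSE30, and 13.9 and 7.22 TPM in TE-1, while its annotated PAC had 3.07 and 5.12 TPM in KYSE30 and 10.4 and 12.1 TPM in TE-1. In both lines the PAC past the end was higher and the annotated PAC lower with l-lactate. Usage was 63.3% against 33.3% in KYSE30, a difference of 30 percentage points (Newcombe interval 11.9 to 45.5), and 57.3% against 37.3% in TE-1, a difference of 19.97 (10.3 to 29.1). The log2 ratio was 1.24 higher (SE 0.19, adjusted p = 0.472), which does not pass. Where only PACs listed in all libraries entered the fit, its log2 ratio was the same 1.24 and its limma adjusted p was 2.98e-06. Only the moderated variance and the set of PACs adjusted over differed, and the libraries were the same single ones. Of 184 PACs past gene ends in that fit, 5 were called higher (GALK1, ZBTB7A, SF1, IVD and FUT10) and 1 lower (ZNF331). The backgrounds were 3.49% and 3.68%. The site lies within ITGB4 on the opposite strand and within the RefSeq span of GALK1.

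The other 7 rest on low tag counts and on PACs that at least 1 library did not list. CREB3 (1889 nt past the end), STRN (1957 nt) and IBA57 (2171 nt) were listed in both l-lactate libraries, at 3.42 to 5.02 TPM, and in neither control. SPA17 (795 nt) had 2.09 and 2.72 TPM with l-lactate and was at 0 and 1.16 TPM in the controls. MELK (4446 nt), ZNF721 (3302 nt) and TMEM135 (1 nt) were lower in both lines and were not listed in the TE-1 l-lactate library. CREB3 is a transcription factor held in the endoplasmic reticulum membrane, STRN a scaffold of a phosphatase complex, IBA57 a mitochondrial iron-sulfur cluster protein and MELK a kinase of dividing cells. Each had an adjusted p of 0.34 to 0.52.

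Among PACs with a mean above 5 TPM, the next increases after GALK1 were smaller. ZBTB7A, a transcriptional repressor, went from 50.7% to 67.9% in KYSE30 and from 45.5% to 54.4% in TE-1. PCMT1, a protein repair methyltransferase, went from 41.2% to 49.2% and from 37.3% to 47.8%, and SYPL1, a vesicle protein, from 27.9% to 34.0% and from 18.8% to 28.0%. Of these, PCMT1 had counting intervals above 0 in both lines (1.21 to 14.6 and 4.43 to 16.5 percentage points).

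Lower usage with l-lactate was seen for ZNF331 (41.7% to 31.9% in KYSE30, 59.9% to 41.6% in TE-1), IKBIP (62.5% to 44.1%, 40.5% to 33.9%), the mitochondrial ubiquitin ligase MARCHF5 (26.7% to 18.8%, 20.5% to 14.4%) and KCTD10 (78.1% to 73.4%, 69.7% to 60.0%). All had an adjusted p of 0.52, so these values describe single libraries. Over the 326 PACs, counting intervals lay above 0 in both lines for 14 (4.29%) and below 0 in both for 9 (2.76%), against 4.96% and 4.82% of all PACs tested.

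Replication-dependent histone messages normally end at a stem-loop with no poly(A) tail, so their presence in PAS-seq marks polyadenylated forms. Of 11 such histone genes with a PAC, 3 had 1 past the end: H1-2, a linker histone, at 34 nt, H2AC11 at 1757 nt and H4C8 at 4 nt. No annotated PAC was listed for any of the 3. H1-2 had 51.2 and 54.3 TPM in KYSE30 and 25.03 and 22.23 TPM in TE-1, lower in TE-1 by 1.13 on the log2 scale (SE 0.11, adjusted p = 0.00284). H2AC11 had 11.4 and 11.6 TPM in KYSE30 and 5.55 and 4.62 TPM in TE-1 (log2 difference -1.04, SE 0.16, adjusted p = 0.00813). H4C8 was listed in the KYSE30 l-lactate library only, at 4.46 TPM. Of 10 histone PACs tested in all, 8 were lower in TE-1 and none higher, with a median log2 difference of -1.71, against a background of 33.0% lower. With l-lactate, none passed (median 0.07).

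Of 25 genes of 3′ end processing and termination with a PAC, 3 had 1 past the end, all within 24 nt. XRN2, the nuclease that helps to end transcription, had its only PAC 1 nt past the end, at 66.9 and 71.0 TPM in KYSE30 and 55.9 and 47.1 TPM in TE-1 (log2 difference -0.42, SE 0.11, adjusted p = 0.0372). WDR33, the CPSF subunit that binds AAUAAA, had 6.14 and 5.39 TPM in TE-1 and 3.10 TPM in the KYSE30 control at 5 nt, at a usage of up to 7.47%. CDK12, a kinase that restrains early polyadenylation, had 3.85 TPM at 1 nt in the TE-1 control only. Of the 48 PACs of the list, 16 were higher in TE-1 and 12 lower, against 31.8% and 33.0% of all PACs, and none passed with l-lactate (median log2 difference 0.04).

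Of the 9 genes the study examined, which it chose in part on these samples, only BTF3L4 had a PAC past the end, 847 nt out, at 1.81 TPM with l-lactate and 3.77 TPM in the control of KYSE30 and at 1.65 and 0 TPM in TE-1. This was at most 3.36% of its tags, since its 3 annotated PACs summed to 72.4 to 109 TPM. FDX1, PAWR, FAM98B, NUDT21, CPSF6, AARS1, HDAC2 and LDHA had none. Of 19 PACs of the 9 genes, 5 were higher in TE-1 and 3 lower, against 31.8% and 33.0% of all PACs, and none passed with l-lactate (median log2 difference 0.16).

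Zinc finger genes named ZNF had 25 PACs past the end in 24 of 328 genes, 16 of them past 24 nt. ZNF362 and ZNF358, at 1 nt, had no annotated PAC listed, with 50.5 and 53.2 TPM for ZNF362 in KYSE30 and 20.2 and 20.8 TPM in TE-1. ZNF669, 1859 nt past the end and also without an annotated PAC, had 7.94 and 6.195 TPM in KYSE30 and 14.1 and 13.3 TPM in TE-1. The lines did not overlap in either gene, in opposite directions. Of 9 ZNF PACs past gene ends tested for usage, 3 passed between lines, against 25.4% of all PACs tested, and none with l-lactate. Over 387 PACs of ZNF genes in all, 102 were higher and 104 lower in TE-1, against 31.8% and 33.0% of all PACs, and none passed with l-lactate (median log2 difference 0.04).

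The last PACs inside the limit of 5000 nt were AP5S1 at 4966 nt (mean 4.00 TPM), OST4 at 4888 nt (1.71 TPM) and METAP1 at 4881 nt (0.673 TPM). The first outside were those past PDHA1 at 5002 nt (3.33 TPM), WDR43 at 5041 nt (3.68 TPM) and MDM2 at 5134 nt (2.87 TPM).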

How the data were processed

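PAS-seq was measured in 4 libraries, 1 per treatment and line. According to the study's methods, poly(A)-selected RNA was made into strand-specific (dUTP) libraries and sequenced in pairs of 150 nt. The authors trimmed reads with FASTX-Toolkit 0.0.13, aligned them to GRCh38 (GRCh38.p14 in the submitters' processing notes) with HISAT2, called sites with CAGEr, excluded sites under 1 TPM, joined sites within 24 nt into PACs, removed PACs of a single site under 3 TPM, and joined PACs above 5 TPM in all samples that lay within 500 nt. The deposited TPM are RPM values, tags scaled to the total tags of the library. In the deposited tables start positions count from 0 and dominant sites from 1.

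Here, tag numbers were recovered from the spacing of the listed values (all values were whole multiples of 1 tag within 0.0015 TPM) and used for depth and for Wilson and Newcombe 95% intervals only. PACs were placed on GENCODE v44 genes. Of 29 sequence names, 23 were in the hg38 sequence used and no position lay past its end. Usage was tested with limma on log2((PAC + 1)/(other annotated PACs of the gene + 1)), over all PACs with mean TPM above 1 and other annotated PACs above 5, with line and treatment as terms, moderated variance with a trend, and Benjamini-Hochberg adjustment at 0.05, and levels with limma on log2(TPM + 1). Such fold changes understate those of low PACs. The design leaves 1 residual degree of freedom per PAC. That degree of freedom is the difference between the lines in the l-lactate effect. To it limma adds a prior drawn from all PACs, of 2.60 degrees of freedom for usage and 2.77 for level. The p-values therefore do not measure the spread between cultures of a condition. The usage fit for l-lactate was tested on simulated data, with PACs raised 2-fold (26 of 97 called) or 4-fold (82 of 100 called). The simulated spread was preset and not estimated from these data, and both lines changed alike. Of 5277 unchanged PACs, 5 were called. The level fit and the line term were not simulated. Named were the 8 PACs of highest TPM, the 8 of highest usage past 24 nt with mean TPM above 5 for the PAC and the annotated PACs, up to 4 in each direction by the change in usage with l-lactate and between lines (mean TPM above 5), up to 4 per gene list, and 3 on each side of the distance limit. Members and lists were chosen with earlier results of these data known. Alternatives changed the placement, TPM minimum, distance limit, signal window and motif, pseudocount, filters and scaling. A variance trend on abundance and a robust variance fit were added after the data were seen. Tools were R 4.3.3 with limma 3.58.1, and Python 3.11.15 with pysam 0.24.0, pandas 2.3.3, matplotlib 3.10.9, NumPy 2.4.6 and SciPy 1.17.1.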

Additional observations from a re-analysis of the deposited data

Results flagged for a closer look

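Some values moved in opposite directions with l-lactate in the 2 lines, with counting intervals that exclude 0 in each line. No test of the difference between the lines was possible with 1 library per condition, so the differences were not tested. The share of listed tags held by the PACs past gene ends changed by -0.0530 percentage points in KYSE30 (interval -0.0693 to -0.0367) and by 0.0565 in TE-1 (0.0410 to 0.0719). Past 24 nt it changed by -0.00677 in KYSE30 (-0.0111 to -0.00241) and by 0.0172 in TE-1 (0.0134 to 0.0209). Within 24 nt it changed by -0.0462 in KYSE30 and by 0.0393 in TE-1.

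Of the 326 PACs with a usage test, 6 (1.84%) did so in their usage, against 97 of all 5731 PACs tested (1.69%). Those of 4 genes lay 1 nt past the end. TMEM201, a protein of the inner nuclear membrane, changed by -21.2 percentage points in KYSE30 and 11.9 in TE-1. RPL6, a ribosomal protein, changed by 11.4 in KYSE30 and -25.5 in TE-1, VPS41, of the lysosomal tethering complex HOPS, by 9.56 and -24.3, and ZMYM3, a zinc finger protein, by 4.58 and -4.68. The changes of BTF3L4, 847 nt past the end, were -1.64 in KYSE30 and 2.05 in TE-1. Those of TPX2, a spindle protein, 1408 nt past the end, were -0.753 and 0.988. These values were singled out from 326 by this rule, and each compares single libraries.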

How the results depend on the processing

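The fit holds line as a term, which sets l-lactate against control within each line. No paired analysis was possible because, beyond this, the groups share fewer than 2 replicate numbers. Leaving out a library would leave no residual degree of freedom, so values per line stand beside each result. Placing PACs by the midpoint of their quantile positions gave 1005 PACs and a mean share of listed tags of 4.00%, against 820 and 2.58%. The share was 2.53% with a highest TPM above 5, 2.52% with a limit of 2000 nt, and 0.162% (323 PACs) without those within 24 nt of the end. The share with AAUAAA was 62.2% without those within 24 nt and 85.0% with AUUAAA added, against 68.4%.

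Calls of usage between lines (35 higher in TE-1, 54 higher in KYSE30, of 326) became 62 and 102 with a pseudocount of 5. Over all 5731 PACs, that setting called 1340 and 1332. With no filter on TPM the calls became 10 and 10 of 431, against 126 and 142 of all 7658. Without PACs within 24 nt they became 23 and 39 of 217, against 716 and 714 of all 5622. With no filter on TPM, NOC3L alone kept its call among the PACs named for a line difference in usage. The calls were 41 and 66 with the variance trend on abundance, 35 and 53 with robust variance, and 26 and 46 among PACs with a usage in every library, all chosen after the data were seen. Over all 5731 PACs, the variance trend called 924 and 954 and robust variance 727 and 722. Of all 5470 PACs with a usage in every library, 643 and 639 were called. With l-lactate, usage calls rose from 0 and 0 to 5 higher and 1 lower of 184, only where PACs listed in all 4 libraries were tested. Over all 4240 such PACs, 148 were called higher and 156 lower. Level calls rose there from 0 to 2 higher of 522, against 109 higher and 50 lower of all 12344. The cause was not tested. The changes of 10 percentage points (5 higher, 3 lower) became 13 and 6 at 5 points (5.83%, against 9.93% of all PACs), 2 and 1 at 20 points (0.920% against 0.227%), and 1 and 0 among PACs listed in all libraries (0.543% against 1.56%). A pseudocount of 5 turned the sign of the l-lactate difference of ZNF714 (-0.029) and of the line difference of LIPH (-0.0040). Centring on the median ratio turned the median level difference with l-lactate from 0.02 to -0.0083. For single named PACs, 20 values passed the threshold under an alternative and 15 no longer did. The depth of 7174991 to 10393799 tags leaves PACs under about 1 TPM unlisted, which limits what is called absent.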
